A study of Mus musculus with 2 samples.

Results

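The genes described here are 39 genes induced by type I interferon, chosen by symbol as known members of the response. The rule uses no measured value, but the choice was made with earlier results of these data known. Of the 39, 38 were found by symbol among the 32285 features measured; Mx1 is not analysed here. They were followed in single-cell transcriptomes of mouse regulatory T (Treg) cells, which hold other immune cells in check under the control of the factor Foxp3. Before sorting they were stained with MitoTracker, a dye taken up by mitochondria, and then parted into a bright population, Mito-high, and a dim population, Mito-low, with 1 library of each. The study's title places it in work on copper and Treg suppression. The sources used here give no tissue, strain, sex, age, genotype or number of the mice, and name no treatment other than the dye for either population.

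Type I interferons bind a receptor made of Ifnar1 and Ifnar2, whose kinases Jak1 and Tyk2 activate a complex, with Stat2 and Irf9 among its members, that binds the interferon-stimulated response element (ISRE) in the promoters of the induced genes. The induced proteins detect foreign nucleic acid, degrade or sequester viral RNA, and feed back on the pathway. T cells carry a tonic level of this programme without infection, and interferon-gamma induces many of the same genes.

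With 1 library per population no difference below has a replicate spread beside it, so none was tested and no p-value is given. Intervals are exact 95% intervals and cover counting error only. After barcodes with fewer than 500 detected genes or more than 20% mitochondrially encoded UMIs (unique molecular identifiers, each a tagged transcript) were removed, the Mito-high library kept 12217 cells at a median of 6132 UMIs, and the Mito-low library 11679 cells at 4668 UMIs. The 38 genes made up 0.303% of Mito-high UMIs (272291 UMIs) and 0.390% of Mito-low UMIs (236097 UMIs). All 6 Treg markers examined were measured above the level minimum, Foxp3 itself at 25.8 counts per 1000000 UMIs (CPM) in Mito-high cells, against 41.0 CPM in Mito-low cells. Of the barcode sequences, 38 occurred in both libraries, 0.308% of those in Mito-high and 0.319% of those in Mito-low.

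The promoters shown first belong to Ifit3b, Ifit3, Ifit1 and Oasl1, the 4 genes with the largest share of their UMIs in cells that had UMIs of 3 or more other genes of the set (mean of both libraries), and they let the ISRE be seen. By that measure Oasl1 had 87.1% and the next gene, Rsad2, also 87.1%, so the choice between them is arbitrary. Each is the 250 bases before the annotated start in RefSeq (GRCm38.p6), written 5′ to 3′, with matches to the ISRE letters in capitals. Ifit3b lies at chr19:34607707-34607956, Ifit3 at chr19:34583279-34583528, Ifit1 at chr19:34640639-34640888 and Oasl1 at chr5:114922990-114923239, all on the plus strand.
Ifit3b: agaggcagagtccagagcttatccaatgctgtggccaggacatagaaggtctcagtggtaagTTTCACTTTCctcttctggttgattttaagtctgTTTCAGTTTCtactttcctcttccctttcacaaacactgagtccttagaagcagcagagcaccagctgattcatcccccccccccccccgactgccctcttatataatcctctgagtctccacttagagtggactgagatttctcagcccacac
Ifit3: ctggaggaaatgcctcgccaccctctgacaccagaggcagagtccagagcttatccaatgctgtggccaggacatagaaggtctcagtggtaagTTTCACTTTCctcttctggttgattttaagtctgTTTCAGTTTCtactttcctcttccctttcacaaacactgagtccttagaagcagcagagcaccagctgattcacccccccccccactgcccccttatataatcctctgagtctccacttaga
Ifit1: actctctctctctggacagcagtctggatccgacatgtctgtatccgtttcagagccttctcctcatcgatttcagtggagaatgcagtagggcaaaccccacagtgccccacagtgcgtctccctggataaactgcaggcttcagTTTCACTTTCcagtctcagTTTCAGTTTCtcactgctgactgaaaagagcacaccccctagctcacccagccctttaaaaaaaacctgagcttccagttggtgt
Oasl1: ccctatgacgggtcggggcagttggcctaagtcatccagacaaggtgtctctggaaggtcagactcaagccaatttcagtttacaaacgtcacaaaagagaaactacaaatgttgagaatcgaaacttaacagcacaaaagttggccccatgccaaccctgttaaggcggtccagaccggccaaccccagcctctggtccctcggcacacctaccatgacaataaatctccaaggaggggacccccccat

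The Ifit3b and Ifit3 stretches share an unbroken run of 169 bases, which holds both of their ISRE matches, beginning 188 and 154 bases before the start of Ifit3b and 156 and 122 before that of Ifit3. The pair in Ifit1 begins 104 and 85 bases before its start, and the same 2 versions of the element, read on the opposite strand, recur in all 3 genes. The search letters were GAAA, any 2 bases and GAAA, or on the other strand TTTC, any 2 bases and TTTC, with overlapping matches allowed, in windows from 250 bases before to 50 after each start. Of the 31 members with a promoter entry, 19 (61.3%) held a match, against 1079 of 27025 genes (3.99%) in the whole table. Isg15 held 3 overlapping matches and Oasl1 none, which says only that these letters are not in that window.

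Most of these genes were lower in the Mito-high than in the Mito-low library, by unequal amounts. Of the 38, 32 reached a mean of 5 CPM over the 2 libraries, and of these 11 were at least 1.5-fold lower and 0 higher in Mito-high by that measure. Among the 11, Oas1a, Rsad2 and Ifit1bl1 were at 3.62, 4.46 and 3.88 CPM in Mito-high. They reached the minimum only through their Mito-low level, so the count leans toward lower genes. By any amount 29 of the 32 were lower and 3 higher, where 68.5% and 31.5% of all features were. With edgeR's TMM scaling 22 were lower and 10 higher, where 45.3% of all features were lower. Over all 8951 features at that level, 11.5% were at least 1.5-fold lower and 4.21% higher. Ratios are given as log2 of the Mito-high over the Mito-low level unless stated otherwise, and their median was −0.37 for the 32 genes and −0.15 for all features. TMM scaling raised every ratio by about 0.19, which put the genes' median at −0.18, that of all features at 0.04, and left 7 genes 1.5-fold lower. No share of all features is set beside those 7. The 6 genes under the minimum were Ifit3b, Oas2, Oasl1, Oasl2, Cmpk2 and Ifi44.

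**Figure D1:**
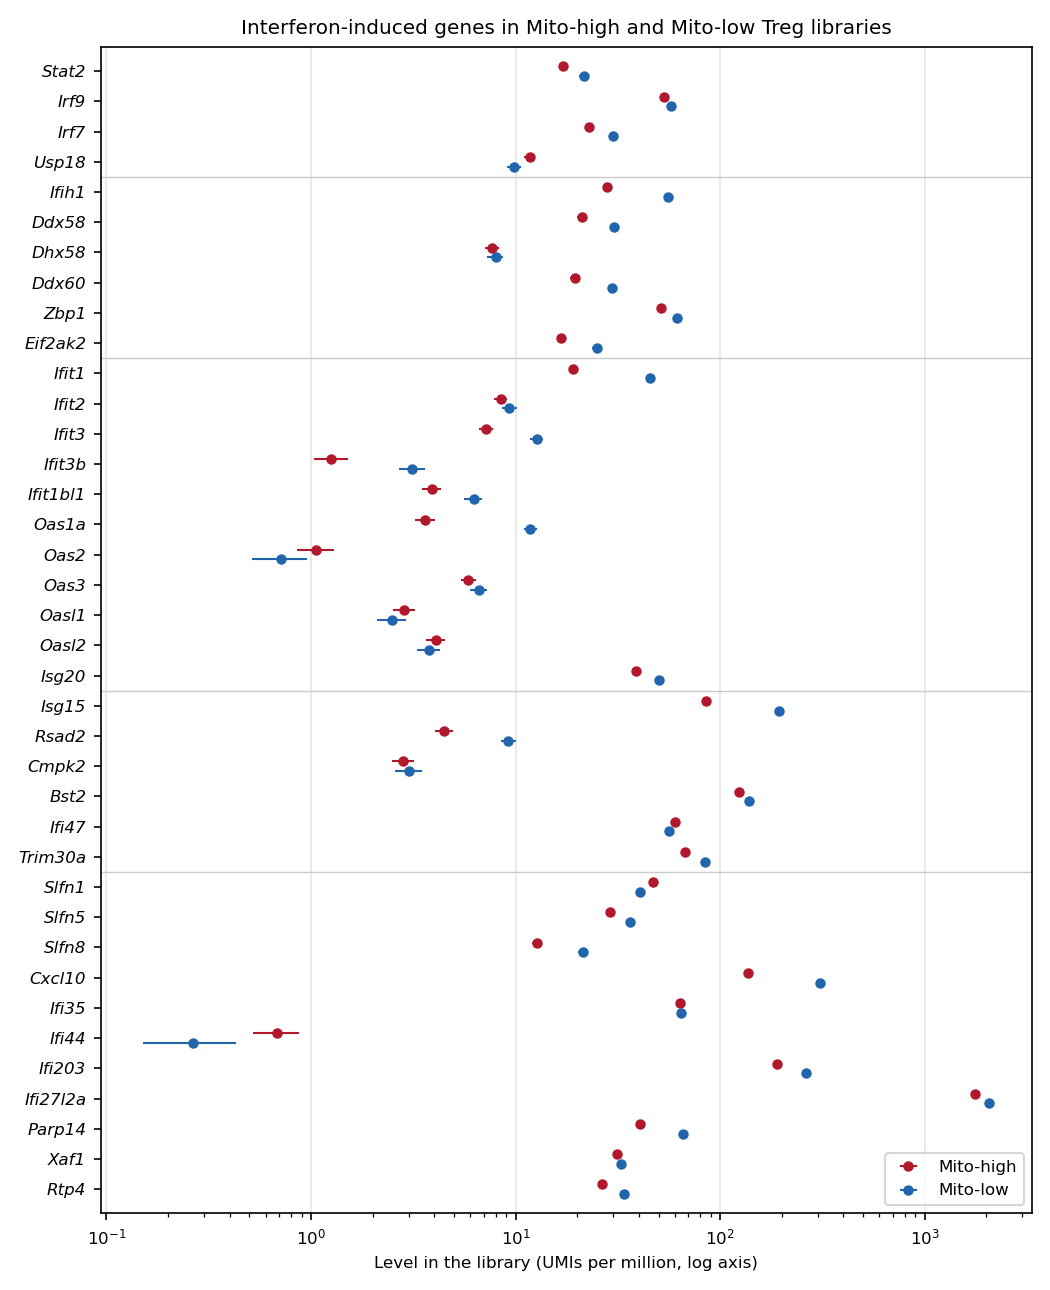
Level of each of the 38 measured genes in CPM (log axis) in the Mito-high library (red, upper point) and the Mito-low library (blue, lower point), with exact 95% Poisson intervals; grey lines part the functional groups. Isg15, Cxcl10, Ifih1, Ifit1 and Oas1a lie well to the left in Mito-high, whereas Usp18, Slfn1 and Ifi47 lie slightly to the right.

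Signalling and feedback genes differed by less than 1.5-fold. Stat2, a core member of the complex that binds the ISRE, was at 17.1 CPM in Mito-high cells, against 21.5 CPM in Mito-low cells. Irf9, its DNA-binding partner, was at 53.0 and 57.6 CPM, and its log2 ratio of −0.12 turned positive under all 3 other scalings. Irf7, the transcription factor that amplifies interferon production, was at 22.8 CPM in Mito-high cells, against 29.9 CPM in Mito-low cells (ratio −0.39). Usp18, which strips Isg15 from proteins and shuts down the receptor, went the other way with 11.7 CPM in Mito-high cells, against 9.85 CPM in Mito-low cells (ratio 0.25, interval 0.11 to 0.40). The 4 genes had a median of −0.22, and 0 of them were 1.5-fold apart.

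Among the sensors of nucleic acid, the gene for the long double-stranded RNA sensor MDA5, Ifih1, stood lowest. It was at 27.9 CPM in Mito-high cells, against 55.5 CPM in Mito-low cells (ratio −0.99, interval −1.07 to −0.92). Ddx60, a helicase that assists RNA sensing, was at 19.4 and 29.6 CPM (−0.61), and these were the 2 of 6 sensors at least 1.5-fold lower. Ddx58, which encodes the RNA sensor RIG-I, and Eif2ak2, which encodes the translation-blocking kinase PKR, came close with −0.52 and −0.58. Zbp1, a sensor of Z-form nucleic acid, was at −0.26. Dhx58, which encodes the regulator LGP2, was at 7.66 CPM in Mito-high cells, against 7.98 CPM in Mito-low cells, and its ratio turned positive under all 3 other scalings. The median of the 6 sensors was −0.55.

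Among genes that passed the minimum, the effectors that bind or degrade RNA had the lowest median of the groups, −0.68 over 7 of 11. Of these 7, 4 were at least 1.5-fold lower. The rest were under the minimum: Ifit3b at −1.31, and Oas2, Oasl1 and Oasl2 at 0.55, 0.19 and 0.11. The rank of this group therefore depends on the minimum. Oas1a, whose product makes the oligoadenylates that switch on RNase L, was at 3.62 CPM in Mito-high cells, against 11.8 CPM in Mito-low cells (ratio −1.71, interval −1.90 to −1.52). This is the lowest ratio of the set, but 52.9% of the 60-base stretches of its transcripts recur in other genes, mainly Oas1g and Oas1b, so its counts are uncertain. Ifit1, which binds viral RNA with foreign caps, was at 19.1 CPM in Mito-high cells, against 45.4 CPM in Mito-low cells (−1.25, interval −1.33 to −1.16). Ifit3, a partner of the same family, was at 7.19 and 12.7 CPM (−0.82), and its near-copy Ifit3b at 1.26 and 3.12 CPM (−1.31). Of their 60-base stretches 47.0% and 40.8% are shared, so reads of this pair may have been divided between them or dropped. Ifit1bl1 completed the 4 with −0.68.

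Other members of those families did not share these ratios. Ifit2 was at 8.48 CPM in Mito-high cells, against 9.33 CPM in Mito-low cells, and Oas3 at 5.88 and 6.61 CPM, both ratios turning positive with TMM scaling. The remaining oligoadenylate synthetase genes were low: Oas2 had 95 UMIs in Mito-high cells, against 43 in Mito-low cells, Oasl1, which in the mouse restrains Irf7 translation, 257 and 151, and Oasl2 366 and 228. After scaling to depth these 3 had ratios above 0, with intervals that include 0 for Oasl1 and Oasl2. Isg20, an RNA exonuclease, was at 38.7 CPM in Mito-high cells, against 50.0 CPM in Mito-low cells (−0.37).

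Isg15, the ubiquitin-like modifier, had the lowest ratio among the other antiviral effectors. It was at 85.0 CPM in Mito-high cells (7641 UMIs), against 195 CPM in Mito-low cells, or −1.20 on the log2 scale (interval −1.24 to −1.15). Rsad2, which encodes the antiviral enzyme viperin, was at 4.46 and 9.20 CPM (−1.04). Its chromosomal neighbour Cmpk2, a mitochondrial nucleotide kinase, was at 2.81 CPM in Mito-high cells, against 3.01 CPM in Mito-low cells, below the minimum. Bst2, which tethers budding virions, was at 124 and 139 CPM (−0.16, turning to 0.03 with TMM). Trim30a, a ubiquitin ligase family member, had a ratio of −0.33, and Ifi47, a GTPase of cell-autonomous immunity, 0.10.

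Cxcl10, a chemokine that draws cells bearing Cxcr3, was at 138 CPM in Mito-high cells, against 308 CPM in Mito-low cells (ratio −1.16, interval −1.20 to −1.13). Myeloid cells are a known source of this chemokine, and the 5 myeloid markers found summed to 4.26 CPM in Mito-high cells, against 3.27 CPM in Mito-low cells. Lyz2 was at 0.289 and 0.430 CPM and Csf1r at 0.334 and 0.330 CPM. Itgam was at 0.834 and 0.264 CPM, Cd68 at 2.57 and 2.07 CPM, and Adgre1 at 0.234 and 0.182 CPM. Their part in the Cxcl10 level was not tested. Slfn8 and Slfn1, of the schlafen family of growth and translation regulators, went apart: Slfn8 was at 12.8 CPM in Mito-high cells, against 21.3 CPM in Mito-low cells (−0.74), Slfn1 at 47.1 and 40.8 CPM (0.21). Slfn5 was at −0.32. Parp14, an ADP-ribosyltransferase, was at 40.5 CPM in Mito-high cells, against 65.8 CPM in Mito-low cells (−0.70). Together with Cxcl10 and Slfn8 it made the 3 of 10 genes in this last group that were at least 1.5-fold lower.

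Ifi27l2a, a small membrane protein gene of the ISG12 family, alone gave 58.2% of the set's UMIs in Mito-high cells, against 53.0% in Mito-low cells. Its level was 1763 CPM in Mito-high cells, against 2067 CPM in Mito-low cells (−0.23). Without it the sum over the other 37 genes was 1266 CPM in Mito-high cells, against 1834 CPM in Mito-low cells (−0.53). Ifi203, a member of a family of DNA-binding proteins, was at 189 and 264 CPM (−0.48), and Rtp4, a receptor chaperone, at 26.5 and 34.1 CPM (−0.36). Ifi35 and Xaf1, which encodes a partner of the apoptosis inhibitor XIAP, had −0.02 and −0.06, and both turned positive under all 3 other scalings. Ifi44 was near the limit of detection with 61 UMIs in Mito-high cells, against 16 in Mito-low cells.

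Other values of the libraries were read beside those of the set. Over all features the median was −0.15, with 11.5% at least 1.5-fold lower and 4.21% higher. The 6 Treg markers had a median log2 ratio of −0.62, with 3 at least 1.5-fold lower and 0 higher. Of these, Il2ra alone was above 0, at 0.42 (interval 0.38 to 0.45). The 5 T cell markers had a median of −0.43, all below 0 and none 1.5-fold lower. The RNA quality gene Gm42418, which overlaps ribosomal RNA sequence, had a log2 ratio of −1.46 and the nuclear transcript Malat1 −0.92. Of 17 genes of heat and dissociation stress, 5 were at least 1.5-fold lower and 1 higher in Mito-high, with a median of −0.17. B cell markers summed to 24.2 CPM in Mito-high cells, against 18.0 CPM in Mito-low cells, of which Cd79b made up 11.3 and 15.4 CPM. Markers of plasmacytoid dendritic cells, which produce type I interferon, summed to 7.30 and 2.81 CPM, nearly all from Ly6d and Ccr9. The defining marker Siglech had 1 UMI in Mito-high, against 0 in Mito-low, and Klk1 had 0 in both. NK and plasma cell marker sums were at most 1.78 CPM in either library. The part of depth, RNA quality and other cells in these ratios was not tested.

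Cells were next compared one by one. As the Mito-high library is deeper, cells were thinned to 2000 random UMIs apiece, which left out 139 shallower cells in Mito-high and 491 in Mito-low. A thinned cell then had UMIs of 2.95 ± 1.99 genes of the set in Mito-high and 3.44 ± 2.28 in Mito-low (mean ± SD over 12078 and 11188 cells). No gene of the set was detected in 3.46% of Mito-high cells and 2.21% of Mito-low cells, and 1 or 2 genes in 44.5% and 35.3%. At least 3 were detected in 52.0% of Mito-high cells (51.1 to 52.9), against 62.5% in Mito-low (61.6 to 63.4). Without thinning the order turned, with 90.7% in Mito-high and 87.6% in Mito-low. Among cells of 4000 to 6000 UMIs, a window chosen for this share after seeing the data, the thinned shares were 51.1% and 62.4%.

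The division at 3 genes cuts through the middle of the distribution, since 2634 Mito-high and 2554 Mito-low cells had exactly 3, and 3195 and 2475 exactly 2. Much of it comes from genes found broadly: Ifi27l2a was detected in 83.7% of thinned Mito-high cells and 85.4% of thinned Mito-low cells, and Bst2 in 19.6% and 21.1%. Without the 11 genes found in over 10% of cells of either library, the shares with 3 or more were 6.17% in Mito-high, against 8.51% in Mito-low. A thin tail of cells carried many more. At least 8 genes were detected in 366 Mito-high cells (3.03%, 2.73 to 3.35) and 520 Mito-low cells (4.65%, 4.27 to 5.05), and the highest number in a cell was 24 in Mito-high and 27 in Mito-low. No cell type that should lack these genes was at hand, so the part of free RNA in these shares could not be measured.

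**Figure D2:**
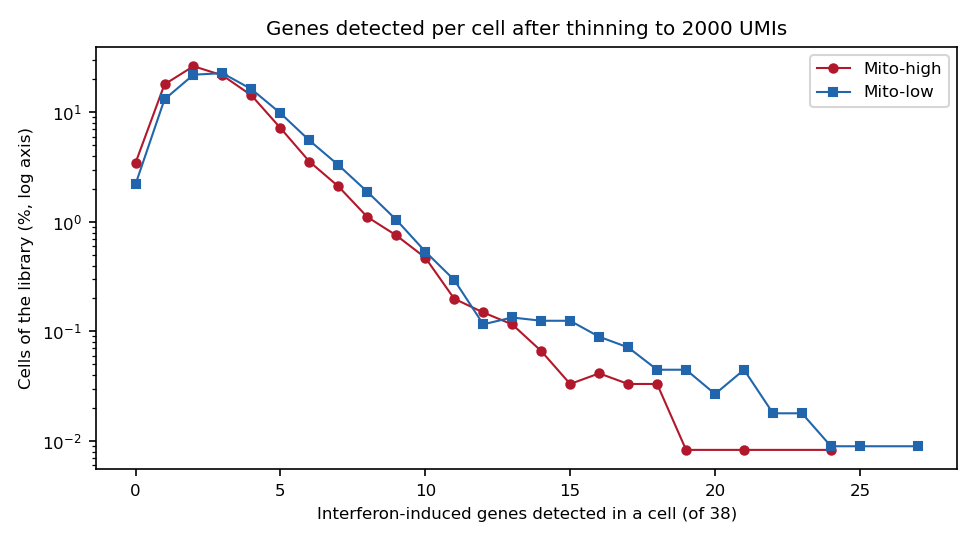
Share of cells (%, log axis) by the number of genes of the set detected in a cell after thinning to 2000 UMIs, for Mito-high (red circles) and Mito-low (blue squares). The Mito-high curve lies above the Mito-low curve at 0 to 2 genes and below it from 3 to 11; both have a tail beyond 8 genes, up to 24 in Mito-high and 27 in Mito-low.

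The genes differed in how far their UMIs gathered in such cells, counted for each gene from the other genes alone. Ifit3 had 47.2% of its Mito-high UMIs and 69.2% of its Mito-low UMIs in cells with 8 or more other genes of the set. Rsad2 had 46.3% and 38.9% there, and Ifit1 28.8% and 32.0%. Ifi27l2a lay at the other end with 4.44% and 6.74%. For Ifit3, cells of this kind were 2.91% of all in Mito-high, against 4.51% in Mito-low. In Mito-high, 17.3% of them had an Ifit3 UMI against 0.904% of all other cells, and in Mito-low 20.6% against 0.721%.

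**Figure D3:**
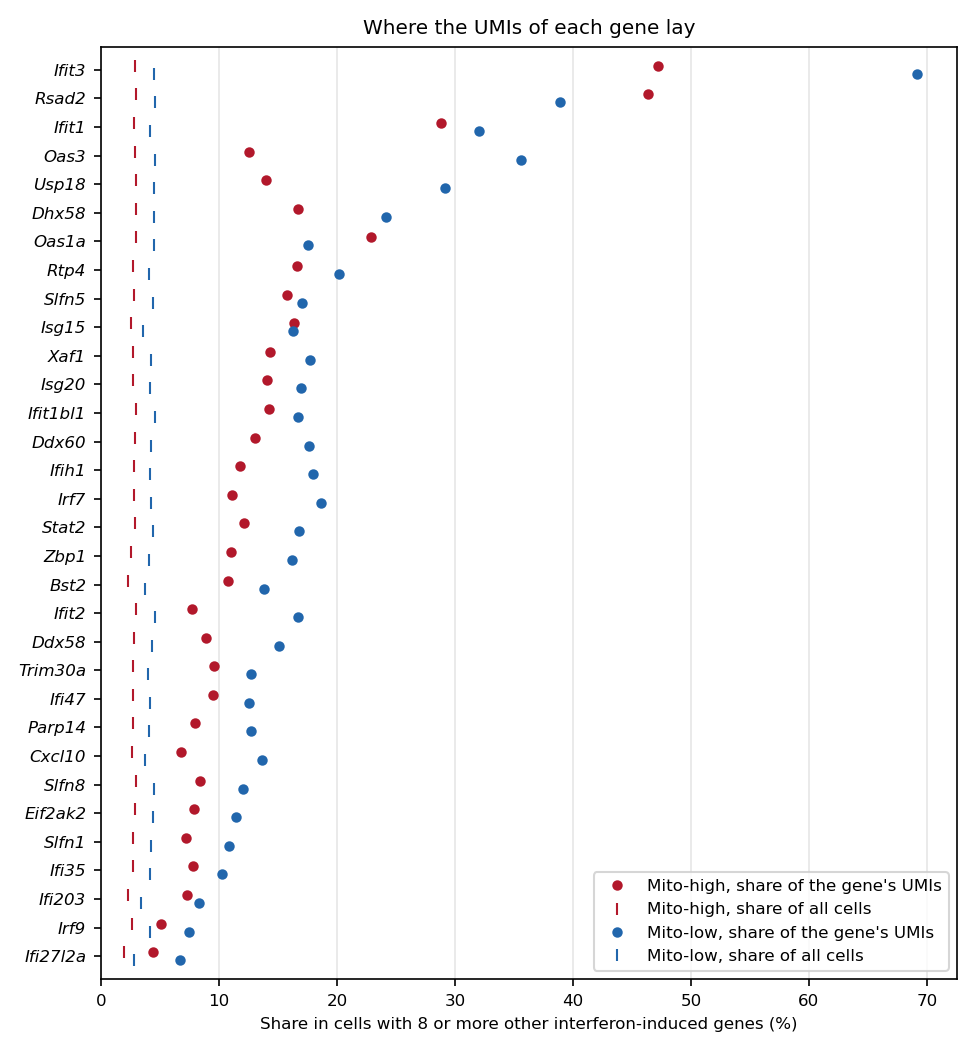
For each of the 32 genes at 5 CPM or more, the share (%) of its UMIs that lay in cells with 8 or more other genes of the set (points), beside the share of all cells that were of this kind (ticks), after thinning, in Mito-high (red, upper) and Mito-low (blue, lower). All points lie to the right of their ticks; Ifit3 and Rsad2 lie farthest right in both libraries, and Ifi27l2a and Irf9 farthest left.

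Pairs of genes showed this gathering to unequal degrees. Isg15 was detected in 46.4% of Mito-high cells with an Ifit1 UMI and in 10.8% of those without, and in Mito-low in 63.3% and 18.7%. Ifih1 was found in 21.8% of Mito-high cells with Ifit1 against 3.77% without, and in 31.3% against 6.45% in Mito-low. Cxcl10 followed with 28.0% against 11.3% in Mito-high and 55.7% against 17.6% in Mito-low. Ifi27l2a, found in most cells, has little room to differ by this measure, with 89.1% against 83.5% in Mito-high and 91.7% against 85.0% in Mito-low. Its level was 3764 CPM in Mito-high cells with 8 or more genes of the set and 1678 CPM in those with fewer, and 4364 and 1839 CPM in Mito-low. Single cells could hold many copies: the highest number of Ifit1 UMIs in a cell was 18 in Mito-high, against 42 in Mito-low, and of Cxcl10 UMIs 68 and 104.

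The libraries were also compared with the tail left out. Since the classes are made from the same genes, these values only describe. In all thinned cells the median ratio was −0.32, with 9 genes at least 1.5-fold lower and 0 higher. In thinned cells with fewer than 8 genes of the set, the median ratio was −0.21, with 8 genes at least 1.5-fold lower and 1, Usp18, higher. Isg15 was at 73.1 CPM in Mito-high cells, against 159 CPM in Mito-low cells of this kind, and Cxcl10 at 111 and 238 CPM. Ifit3 in contrast was at 4.10 CPM in Mito-high cells, against 3.23 CPM in Mito-low cells of this kind (log2 ratio 0.34), while within cells of 8 or more genes it was at 158 and 214 CPM. In cells with fewer than 3 genes the median ratio was −0.02. No share over all features is set beside the counts in these classes.

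Cells with 8 or more genes were set beside cells with 2 or fewer, a comparison chosen after the data were seen, to find what else they carried. Of 50 further interferon-induced genes that were not in the set, 45 were at least 1.5-fold higher in the first class in each library, with a median log2 ratio of 1.46 in Mito-low. Over the 8532 non-members, 10.8% were that much higher in Mito-high and 7.11% in Mito-low. Gbp6, a guanylate-binding GTPase, was at 115 CPM in cells with 8 or more and 12.4 CPM in cells with 2 or fewer in Mito-high, and at 123 and 17.2 CPM in Mito-low. Ifi208 and Ifi206, relatives of Ifi203, had ratios of 2.88 and 2.82 in Mito-high and 2.81 and 2.79 in Mito-low. Rnf213, a large ubiquitin ligase, had 2.86 and 2.61. Of 15 genes of MHC class I presentation 9 were at least 1.5-fold higher in each library, with medians of 0.73 and 0.76.

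Markers of T cells were read in the same classes. The 5 T cell markers summed to 2966 CPM in Mito-high cells with 8 or more genes and 2762 CPM in those with 2 or fewer, and to 3638 and 3575 CPM in Mito-low. The 6 Treg markers summed to 3283 CPM in Mito-high cells with 8 or more genes and 3132 CPM in those with 2 or fewer, and to 4606 and 4768 CPM in Mito-low. Foxp3 itself was lower in the class of 8 or more, with log2 ratios of −0.59 in Mito-high and −0.65 in Mito-low. It was detected in 3.55% of Mito-high cells with 8 or more genes (1.90 to 5.997) and 5.81% of those with 1 or 2 (5.20 to 6.46), and in 5.19% (3.45 to 7.46) and 7.90% (7.08 to 8.79) in Mito-low. In Mito-high 2 of the 17 stress genes were higher in that class by 1.5-fold or more and 1 lower (median 0.04), and in Mito-low 4 were higher and 0 lower (median 0.30). The 2 were Hspa1a and Hspa1b, whereas the chaperone gene Hspd1 was at −0.72 in Mito-high and 0.09 in Mito-low. An Hspa1a or Hspa1b UMI was found in 2.19% of Mito-high cells with 8 or more genes (0.948 to 4.26) and 0.819% of those with 1 or 2 (0.595 to 1.10), and in 7.31% (5.22 to 9.89) and 1.22% in Mito-low. The median depth before thinning was 5876 UMIs in Mito-high cells with 8 or more genes and 6160 in those with 1 or 2, and 4960 and 4748 in Mito-low. Plasmacytoid dendritic cell markers summed to 19.1 CPM in Mito-high cells with 8 or more genes and 10.3 CPM in those with 2 or fewer, and to 1.92 and 3.34 CPM in Mito-low. Their part in the result was not tested.

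With the class of 0 genes as the base, the values rest on 418 Mito-high and 247 Mito-low cells. Of the 50 further interferon-induced genes, 25 were then at least 1.5-fold higher in cells with 3 or more genes of Mito-high, and 24 in those of Mito-low, against 7.76% and 7.49% of all non-members. Ranked by the smaller of both libraries' ratios, the leading genes were Actg2, Serp2, Oas1c, Lgals3bp, Casp1, Tm9sf1, Phf11b, Hist1h1d, Nfatc2ip and Ifi209. The first 3 had at most 2 UMIs in the class of 0 genes in either library. Hist1h1d had 1 UMI there in Mito-high and 0 in Mito-low, Nfatc2ip 3 and 1, and Tm9sf1 4 and 1. Casp1 had 3 and 4, and Lgals3bp 6 and 4. The Mito-low intervals of Hist1h1d, Nfatc2ip and Tm9sf1 include 0, and so does the Mito-high interval of Hist1h1d. Phf11b was at 60.5 CPM in Mito-high cells with 3 or more genes and 23.9 CPM in those with 0, and at 66.8 and 20.2 CPM in Mito-low. Ifi209, from the family of Ifi203, was at 77.5 and 33.5 CPM in Mito-high, and at 86.6 and 28.3 CPM in Mito-low.

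The next comparison set effector against resting cells within each library. Effector cells had UMIs of at least 2 of Ccl5, Il10 and Klrg1, and resting cells at least 1 UMI of Igfbp4. The calls used the counts before thinning, so deeper cells meet either rule more readily. The median depth was 8736 UMIs in effector and 6402 in resting cells of Mito-high, and 5288 and 5582 in Mito-low. There were 165 effector (1.35%) and 2765 resting cells (22.6%) in Mito-high, and 1530 (13.1%) and 185 (1.58%) in Mito-low. Cells that met both rules, 6 in Mito-high and 3 in Mito-low, were left out. Their median log2 ratio of effector over resting was 0.13 in Mito-high and 0.11 in Mito-low, against 0.20 and 0.17 over all features. In Mito-high 9 were at least 1.5-fold higher and 4 lower, where 24.4% and 9.79% of all features were. In Mito-low 8 were higher and 4 lower, where 23.5% and 10.1% were.

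Single genes did differ between the states in the same direction in both libraries. The share of all features that did so in both is not given, so this overlap is only described. Cxcl10 was at 257 CPM in effector and 73.4 CPM in resting cells of Mito-high (log2 ratio 1.81, interval 1.65 to 1.96), and at 284 and 93.6 CPM in Mito-low (1.59, 1.32 to 1.90). Ifi27l2a was at 2819 and 1231 CPM in Mito-high, and at 2229.7 and 1338 CPM in Mito-low. Isg20 was at 65.5 and 33.9 CPM in Mito-high, while it was at 65.6 and 24.1 CPM in Mito-low. With Dhx58, which had 5 UMIs in resting Mito-low cells and an interval there of −0.36 to 2.58, these were the 4 genes at least 1.5-fold higher in effector cells of both libraries. Usp18, Slfn1 and Ifit1bl1 were the 3 that were lower in both, Ifit1bl1 from 2 UMIs in Mito-high effector cells and 14 in Mito-low resting cells, with a Mito-low interval of −1.56 to 0.22. Slfn1 was at 35.4 CPM in effector and 55.6 CPM in resting cells of Mito-high, and at 28.6 and 69.5 CPM in Mito-low.

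Ifit1 went in opposite directions. In Mito-high it was at 9.86 CPM in effector cells, from 17 UMIs, and 22.7 CPM in resting cells, a log2 ratio of −1.12 (interval −1.99 to −0.51). In Mito-low it was at 38.4 CPM in effector and 17.8 CPM in resting cells, the last from 20 UMIs, a log2 ratio of 1.04 (0.46 to 1.83). Isg15 had a ratio of 0.51 in Mito-high (102 against 71.8 CPM) and 1.38 in Mito-low (188 against 71.3 CPM). Whether these ratios differ between the populations could not be tested with 1 library of each.

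**Figure D4:**
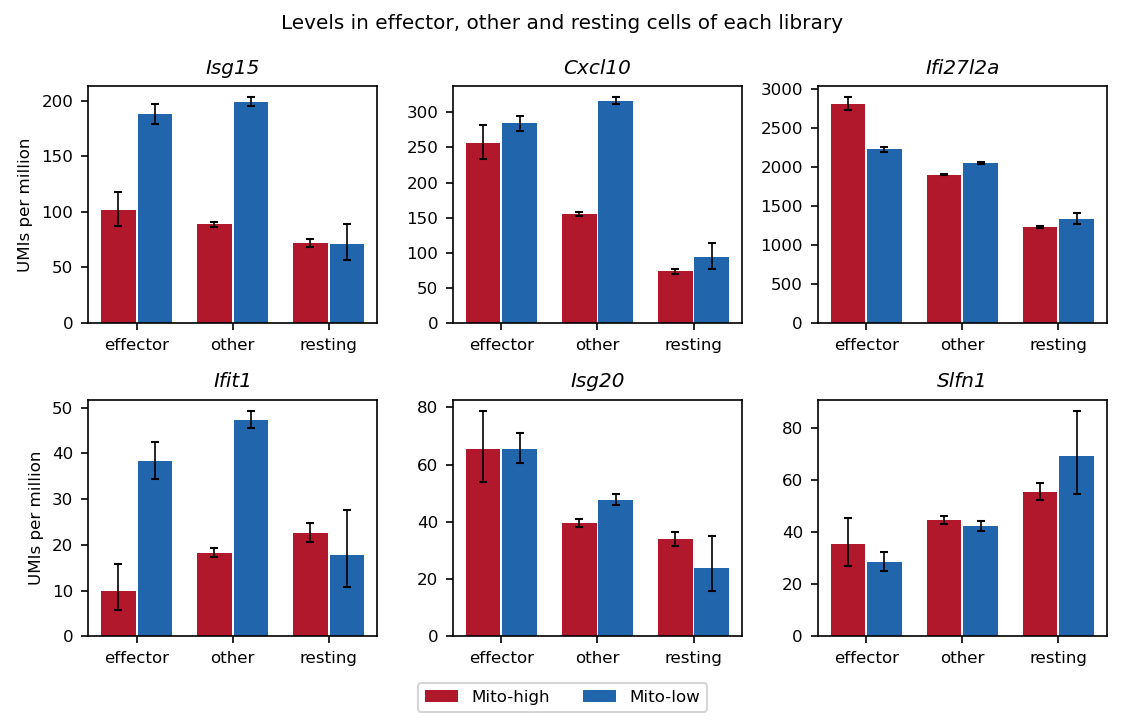
Levels (CPM) of 6 genes in effector, other and resting cells of the Mito-high (red, left bars) and Mito-low (blue, right bars) library, with exact 95% Poisson intervals. Isg15 and Ifit1 are lower in Mito-high in effector and other cells, while the intervals of both libraries overlap in resting cells; Cxcl10 and Ifi27l2a are lowest in resting cells of both.

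Because the states take such different shares of the libraries, Mito-high was also set against Mito-low within each state. Among effector cells the 32 genes had a median log2 ratio of −0.22, with 1 gene 1.5-fold higher or more and 10 lower (all features −0.07, with 10.5% and 13.8%). Among resting cells the median was −0.28, with 0 higher and 5 lower (all features −0.06, with 6.89% and 10.6%). The 5 were Oas1a, Ifit1bl1, Rsad2, Slfn8 and Parp14. In the other cells, which were most of both libraries, it was −0.35, with 0 higher and 11 lower (all features −0.14, with 4.07% and 10.1%).

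Genes varied in how their ratios differed between states, and Isg15 is an example, not the rule. Its level in resting cells was 71.8 CPM in Mito-high ones, against 71.3 CPM in Mito-low ones (ratio −0.01 with the pseudo-count of 1 UMI, interval −0.31 to 0.35), whereas the ratio was −0.88 in effector and −1.16 in other cells. Ifit1 had 0.28 in resting cells with an interval of −0.29 to 1.07, against −1.88 in effector and −1.37 in other cells. Cxcl10 was lower mainly in the other cells, with −1.03, against −0.14 in effector and −0.36 in resting cells. Oas1a went the other way between resting and effector cells, with −2.39 (12 UMIs in Mito-low resting cells) and −0.65. Rsad2, from 8 UMIs in Mito-low resting cells, had −0.94 and −0.07. Parp14 was alike in resting, effector and other cells, with −0.62, −0.68 and −0.69. The share of thinned cells with 3 or more genes was 58.8% (50.9 to 66.4) in Mito-high and 62.1% (59.6 to 64.6) in Mito-low effector cells, and 50.8% (48.9 to 52.6) and 52.2% (44.7 to 59.7) in resting cells. In other cells it was 52.3% and 62.8%. The resting value of Mito-low rests on 180 thinned cells and the effector value of Mito-high on 165.

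The pathway around these genes was read from lists. Genes of type I interferon itself were barely detected: the 18 genes had 22 UMIs in Mito-high cells, against 14 in Mito-low cells, and 14 of them had 0 in both. Of 8 receptor and signalling genes, 2 were at least 1.5-fold lower in Mito-high and 0 higher, with a median of −0.43, where 11.5% and 4.21% of all features were. The 2 lower genes were Socs3, a feedback inhibitor of cytokine signalling, at 51.7 CPM in Mito-high cells, against 85.0 CPM in Mito-low cells, and the kinase gene Tyk2 at 14.1 and 22.9 CPM. Ifnar1 was at 110 and 147 CPM and Ifnar2 at 85.5 and 113 CPM. Of 7 measured sensors and upstream factors 0 were 1.5-fold apart (median −0.14), with the kinase gene Tbk1 at −0.51 and the adaptor gene Myd88 at 0.29.

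Further induced genes differed in both directions, as did features at large. For scale, 11.5% of all 8951 features at the level minimum were lower and 4.21% higher by 1.5-fold or more. Their median was −0.15. The lists below were not tested against these shares. Of 51 measured, 6 were at least 1.5-fold lower and 3 higher in Mito-high, with a median of −0.29. Ly6a, which encodes the surface protein Sca-1, was at 56.2 CPM in Mito-high cells, against 174 CPM in Mito-low cells. Ube2l6, the conjugating enzyme for Isg15, was at 8.45 and 17.4 CPM. On the other side stood Ifitm3, which blocks viral fusion, at 7.14 CPM in Mito-high cells, against 2.91 CPM in Mito-low cells, and Ms4a4c at 23.7 and 9.86 CPM. Of 16 genes responsive to interferon-gamma 6 were lower and 2 higher (median −0.45), with Gbp7 at −1.14 and the receptor chains split, Ifngr1 at −1.06 and Ifngr2 at 1.12. Of 15 genes of MHC class I presentation 3 were lower and 1 higher (median −0.28), with H2-Q6 at −1.46 and H2-T23 at 1.15.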

How the data were processed

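Each deposited file holds unnormalized UMI counts for every feature in every barcode, per the file headers. Per the submitters' processing notes, Cell Ranger 7.1.0, the mm10 genome and Seurat 4.3.0.1 were used. The kit reads transcripts from the 5′ end, per the labels' protocols, with 12000 cells given as loaded per population. The sources used here state neither the annotation release nor the handling of intronic reads and barcodes. The libraries held 12352 Mito-high and 11901 Mito-low barcodes with 89996794 and 60688904 UMIs. Barcodes under 500 genes (120 and 209) or over 20% mitochondrial UMIs (15 and 13) were removed; doublets were not called or removed. UMIs were summed per library or state and scaled to CPM; log2 ratios used a pseudo-count of 1 UMI. A ratio of 1.5-fold describes size among features at a mean of 5 CPM. Intervals are exact Poisson (levels), conditional-binomial (ratios) and Clopper-Pearson (shares) at 95%, with scipy 1.17.1 and numpy 2.4.6. TMM factors came from edgeR 4.0.16. The calculations were tested on simulated data. Shared 60-base stretches came from GENCODE transcripts. The members and lists were chosen with earlier results of these data known. Named were all members, up to 4 genes per list with the largest absolute ratio, the 10 leading non-members of the comparison of 3 or more with 0 genes, and 4 promoters; further genes were named after their values were seen, among them those of the class of 8 or more. The classes of 8 or more genes, the comparisons within states and the gene pairs were also added after the data were seen.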

Additional observations from a re-analysis of the deposited data

Results flagged for a closer look

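The log2 ratio of effector over resting cells for Ifit1 was −1.12 in the Mito-high library and 1.04 in the Mito-low library, so this gene was lower in effector cells of one population and higher in those of the other. It was singled out because the directions are opposite with counting intervals that exclude 0 on both sides. The difference was not tested, since each population has 1 library, and the values rest on 17 UMIs in Mito-high effector cells and 20 UMIs in Mito-low resting cells.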

How the results depend on the processing

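The median ratio of the set, −0.37, was below 0 under each alternative run. It was −0.18 with TMM scaling, −0.21 with the median of all features set to 0, −0.23 with mitochondrial, ribosomal protein and receptor genes left out of the total, −0.25 with every cell weighted alike and −0.25 among cells of 4000 to 6000 UMIs. In all thinned cells it was −0.32. It was −0.21 in thinned cells without those of 8 or more genes, and −0.015 without those of 3 or more. Both were added after the data were seen, from classes made of the same genes. The count of 11 genes at least 1.5-fold lower became 7 with TMM, 6 with a minimum of 20 CPM and 9 in all thinned cells. It became 5 in thinned cells without those of 3 or more genes. The count of 0 higher became 1 with no minimum, 1 among cells of 4000 to 6000 UMIs, 1 without cells of 8 or more genes and 2 without cells of 3 or more. No share over all features is set beside these changed counts. In all thinned cells the ratios of Ifit3, Ifit3b and Ifit1 were −0.57, −1.28 and −1.09. Without cells of 8 or more genes Ifit3 turned to 0.34 and Ifit3b to 0.072. Without cells of 3 or more, Ifit1 turned to 0.58 and Ifit3 to 0.34. Since these genes also make the classes, the turns only describe, and their cause was not tested. The shares with 3 or more genes came to 25.1% for Mito-high and 32.4% for Mito-low after thinning to 1000 UMIs, 71.0% and 80.0% at 3000, and 90.7% and 87.6% with none, the setting that turned their order. The shares with 2 or more genes were 78.5% and 84.6%, with 5 or more 15.9% and 23.4%, with 8 or more 3.03% and 4.65%, with 10 or more 1.17% and 1.72%, and without the 11 broadly found genes 6.17% and 8.51%. Among cells of 4000 to 6000 UMIs they were 51.1% and 62.4%. The effector over resting median in Mito-low was −0.06 with states called from thinned counts and 0.00 from thinned sums, while that in Mito-high was between 0.10 and 0.20. No paired analysis was possible because each population has 1 library, and no library could be left out. Depth limits the low genes most: Oas2, Ifi44 and Ifit3b had fewer than 200 UMIs in each library, and values of Mito-low resting and Mito-high effector cells rest on few cells.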
